A study of Homo sapiens with 6 samples.

Results

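The oxidative phosphorylation system of DU145 cells, an established human prostate carcinoma line, was followed at the level of its mRNAs. Members were the protein-coding genes of the deposited table whose symbol begins with MT- or follows the naming of the NDUF, SDH, UQCR, CYC1, COX4 to COX8 and ATP5 families. This gave 79 genes of 10542 listed, of which 12 were encoded by mitochondrial DNA and 67 by nuclear DNA. Complex I held 33 members, complex II 2, complex III 11, complex IV 15 and complex V 18. NDUFA4 was placed in complex IV, of which its protein is a subunit. Of the 13 mitochondrial mRNAs, MT-ND4L was not analysed here, nor were other subunits that are missing from the list.

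DU145-TFEB cells had been infected with a lentivirus that overexpresses TFEB, a transcription factor of lysosomal and autophagy genes. DU145-vector cells had received the blank vector lentivirus and served as controls. Each group comprised 3 libraries of poly(A)-selected RNA, and the labels do not say whether these came from separate cultures, so p-values measure only the spread between these samples. Both groups derive from 1 cell line, and in bulk RNA fewer cells of a kind and less RNA per cell cannot be told apart.

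Oxidative phosphorylation couples the transfer of electrons to the synthesis of ATP in the inner mitochondrial membrane. Complexes I and II pass electrons to coenzyme Q, complex III passes them to cytochrome c, and complex IV passes them to oxygen. Complexes I, III and IV pump protons as they do so, and complex V (ATP synthase) lets the protons return and makes ATP. Most subunits are encoded in the nucleus and imported, whereas the hydrophobic core of complexes I, III, IV and V is translated inside the organelle from mRNAs that are cut from long transcripts of the mitochondrial DNA. Complex II is entirely nuclear encoded.

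The libraries held 13999961 to 16511477 reads on the listed genes. TFEB itself had normalized counts of 6325, 6301 and 6036 in DU145-TFEB and 127.4, 123.9 and 125 in DU145-vector. A normalized count is the number of reads on a gene divided by 1 size factor per library, and no member had fewer than 24 reads in a library. The test was limma on log2(normalized count + 1), a scale on which changes of low genes come out slightly too small, and p-values were adjusted by Benjamini-Hochberg over all listed genes. A gene was called at an adjusted p-value below 0.05. All 10542 genes of the table had already passed the authors' own test in these libraries at the 0.05 cutoff, so the number of calls is not independent evidence, and limma called 10539 of the 10542 (100%) in either direction. The direction of a call was read against the 47.6% of listed genes called higher and the 52.4% called lower in DU145-TFEB. The median log2 fold change of all listed genes was -0.36 with the scaling of the authors, -0.12 with DESeq2 size factors, -0.18 with the upper quartile and -0.03 with quantile normalization. Of 5 epithelial markers 3 were listed (KRT8, KRT18 and KRT19, log2 fold changes -0.68, -0.78 and -0.38), and of 5 prostate luminal and androgen receptor markers 1 was. None of the listed genes was on the fibroblast, immune or endothelial marker lists. The list holds only genes that passed the authors' test, so a missing marker may still be expressed. Cell identity and the absence of other cell types cannot be read from it.

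Most subunit mRNAs rose in DU145-TFEB, and they rose in all 5 complexes. Of the 67 nuclear encoded members 61 were called higher and 6 lower, and of the 12 mitochondrially encoded members 12 were called higher and 0 lower. With quantile normalization 4 of the 12 mitochondrially encoded members were called higher and 1 lower, while 60 nuclear encoded members were called higher and 5 lower. In that setting MT-ND2, MT-ND4 and ATP5F1B turned lower and MT-CO1 was at 0.00. Quantile normalization sets a value by the rank of a gene in its library. The 0.00 of MT-CO1 thus reflects equal ranks in both groups and does not measure its change. Under the other scalings and tests of the same values the directions held, except that NDUFS1 turned higher with DESeq2 size factors. With the length and GC trend removed, 53 of 79 members kept their direction. The changes were modest. The median log2 fold change was 0.66 for mitochondrially encoded and 0.56 for nuclear encoded members. The largest was 1.13, and 0 members were both called and changed by more than 1.5 on the log2 scale, as 19.1% of all listed genes were (2.54% higher and 16.5% lower). A fold change above 1.5 was reached by 38 members that rose, 7 mitochondrially and 31 nuclear encoded, and by 25.1% of all listed genes. In 72 members every DU145-TFEB library lay above every DU145-vector library, in 6 every one lay below, and in 1 the groups overlapped. Over all listed genes the groups did not overlap for 99.3%, with 47.3% higher and 52.0% lower.

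**Figure D1:**
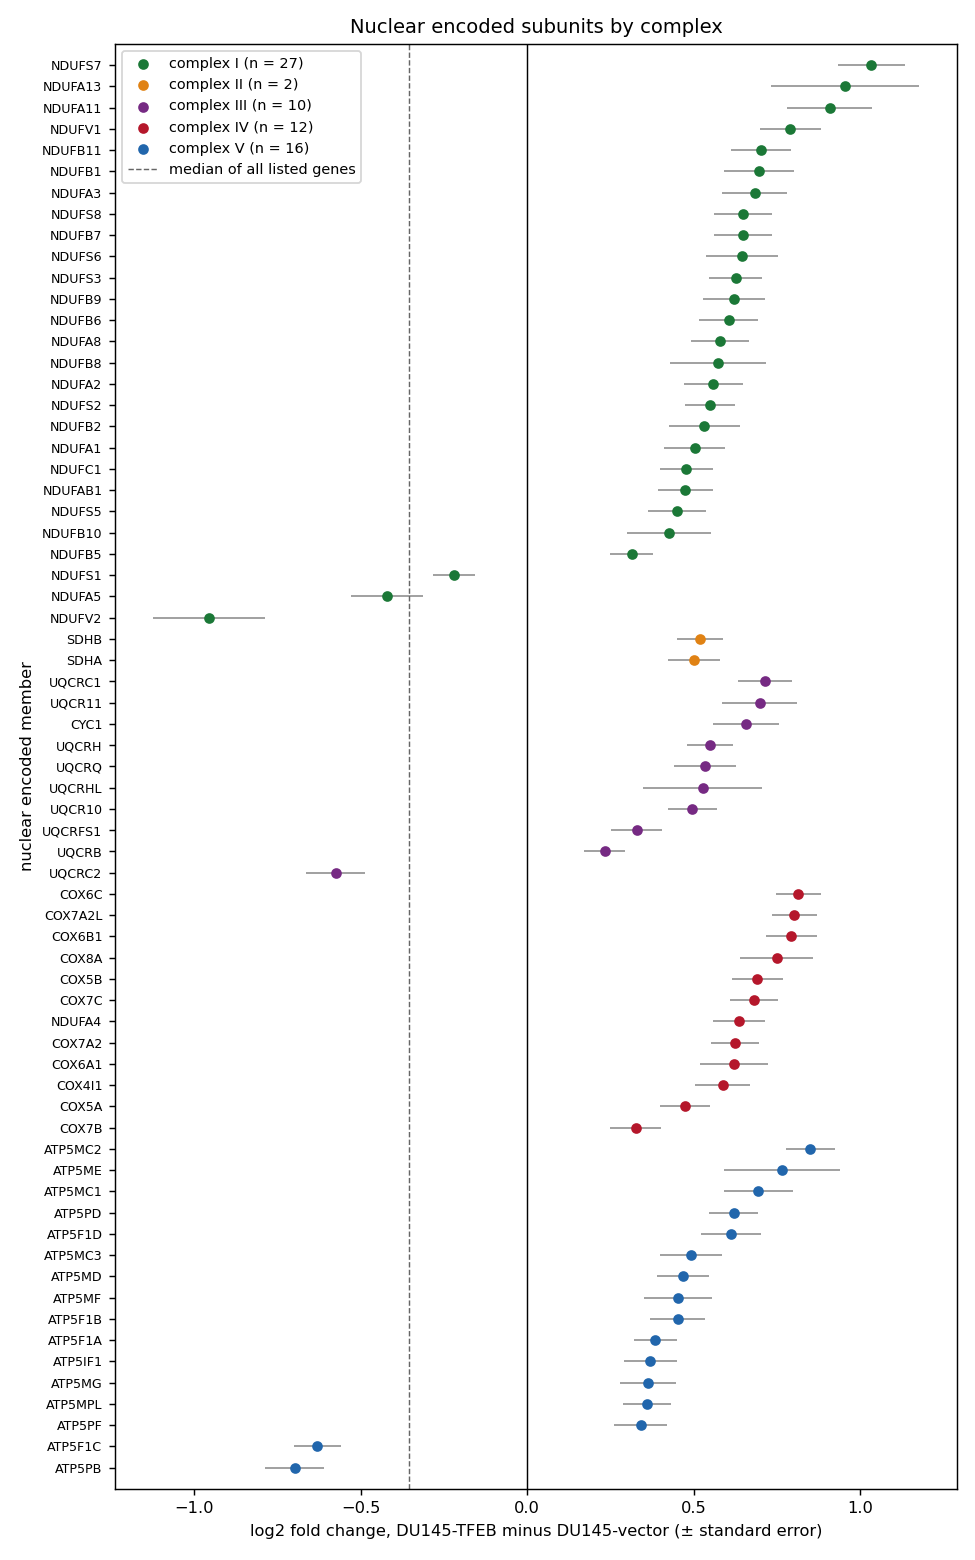
The plot of nuclear encoded members shows the log2 fold change of each of the 67 genes (horizontal axis, DU145-TFEB minus DU145-vector, 3 libraries each) with its limma standard error as a grey line, grouped and coloured by complex; the dashed line is the median of all listed genes. A total of 61 genes lie right of 0 and NDUFV2, NDUFA5, NDUFS1, UQCRC2, ATP5F1C and ATP5PB lie left of it, of which NDUFS1 turned higher with DESeq2 size factors and ATP5F1B turned lower with quantile normalization.

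The mRNAs of the mitochondrial genome took a larger share of the reads in DU145-TFEB. The 12 members held 5.07% ± 0.574 (SD, n = 3) of the reads on listed genes in DU145-TFEB, between 4.41% and 5.42%, and 2.98% ± 0.0904 (SD, n = 3) in DU145-vector. The groups did not overlap, and an exact permutation test (two-sided) cannot go below p = 0.1 with 3 libraries against 3. The 67 nuclear encoded members together held 1.55% ± 0.0985 (SD, n = 3) in DU145-TFEB and 1.14% ± 0.0307 (SD, n = 3) in DU145-vector. The ratio of mitochondrially to nuclear encoded subunit reads was 3.54, 2.67 and 3.70 with TFEB and 2.50, 2.73 and 2.65 with the vector. DU145-TFEB replicate 2 lay within the range of the controls, so this balance did not separate the groups. In the same library the median log2 change against the DU145-vector mean was 0.42 for the mitochondrially encoded and 0.71 for the nuclear encoded members, whereas replicates 1 and 3 gave 0.70 and 0.75 for the former and 0.54 and 0.46 for the latter. The difference of the 2 group medians, mitochondrial minus nuclear, was 0.10 with all libraries and -0.06 without DU145-TFEB replicate 3. It was -0.54 with quantile normalization and 0.91 with the length and GC trend removed, so its sign depended on the processing.

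**Figure D2:**
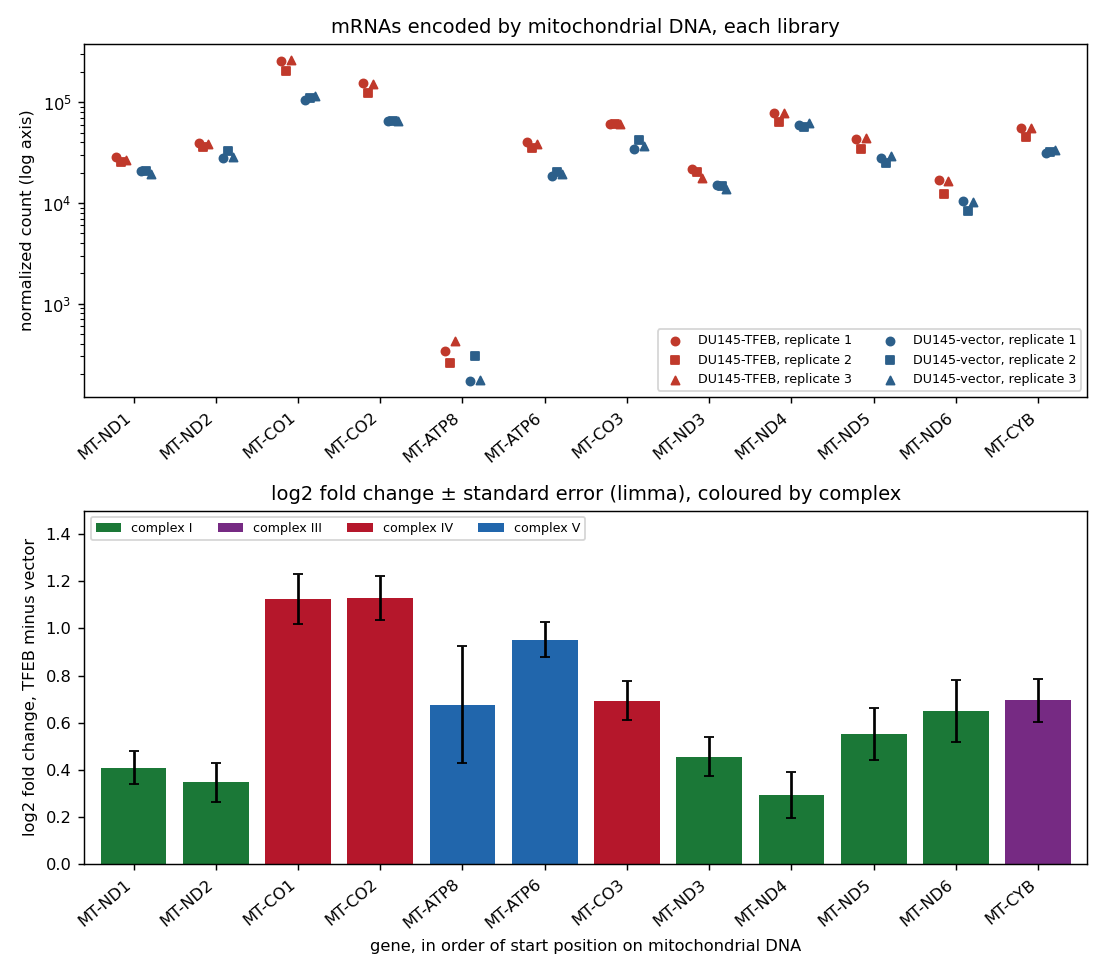
The upper panel shows the normalized count of each of the 12 mitochondrially encoded mRNAs in each library (log axis, colour for the group, symbol for the replicate), and the lower panel the log2 fold change ± limma standard error as bars coloured by complex, both in the order of the genes on mitochondrial DNA. MT-CO1 and MT-CO2 show the highest bars at 1.13 and 1.13 and MT-ND4 the lowest at 0.29. With quantile normalization MT-ND2 and MT-ND4 turned lower and MT-CO1 was at 0.00, a value fixed by its rank.

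The 12 mitochondrial mRNAs did not rise evenly. MT-CO1 (ENSG00000198804, mitochondrial DNA 5904 to 7445), which encodes the catalytic subunit of complex IV, had normalized counts of 258717, 206587 and 262525 in DU145-TFEB and 105918, 109538 and 116506 in DU145-vector. Every DU145-TFEB library lay well above every control, with a log2 fold change of 1.13 (SE 0.10, limma adjusted p = 1.2e-05). MT-CO2 (7586 to 8269), which receives electrons from cytochrome c, gave 154215, 124156 and 151403 against 65850, 64729 and 65239, a log2 fold change of 1.13 (SE 0.09, limma adjusted p = 6.7e-06). The controls of MT-CO2 lay within an SD of 561 around 65273. MT-CO3, the other core subunit of complex IV, had 60551, 60277 and 61156 against 34547, 41827 and 36521. Its log2 fold change was 0.69 (SE 0.08), below those of MT-CO1 and MT-CO2, and the groups were again separate.

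The complex I mRNAs of the mitochondrial genome had the lowest log2 fold changes of the 12. The 6 were all called higher, with values from 0.29 to 0.65 and a median of 0.43. The highest of them, MT-ND6 at 0.65 (SE 0.13), and the next gene in this order, MT-ATP8 at 0.68 (SE 0.25), differed by less than their standard errors, and with the length and GC trend removed MT-ND3 and MT-ND6 (1.39 and 1.37) lay above MT-CO1 (1.15), as MT-ND6 did with quantile normalization (0.44 against 0.00). MT-ND4 (10760 to 12137), a membrane subunit of the proton pump, had 78524, 63036 and 78839 in DU145-TFEB and 58865, 57435 and 62537 in DU145-vector. The lowest DU145-TFEB library lay just above the highest control, and the limma adjusted p of 0.015 became 0.067 without DU145-TFEB replicate 1 and 0.061 without replicate 3. MT-ND1, which helps to form the site where coenzyme Q binds, had 28825, 25466 and 26504 against 20600, 20798 and 19389. Its log2 fold change was 0.41 (SE 0.07). MT-ND2 gave 0.35, MT-ND3 0.46 and MT-ND5 0.55 on the log2 scale. MT-ND6 (14149 to 14673), another membrane subunit, is encoded on the opposite strand and its mRNA is known to lack a stable poly(A) tail. It had 16826, 12256 and 16627 against 10347, 8390 and 10259, a log2 fold change of 0.65 (SE 0.13). Strand-specific counting is not stated, so reads of MT-ND6 and reads of antisense RNA from that stretch cannot be told apart.

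MT-CYB, the cytochrome b of complex III, had 56117, 45372 and 56048 in DU145-TFEB and 31581, 31996 and 33283 in DU145-vector. The log2 fold change was 0.70 (SE 0.09, limma adjusted p = 8.4e-05), between those of complex I and of MT-CO1. In complex V, MT-ATP6, which forms part of the proton channel, gave 39853, 35032 and 38155 against 18609, 20488 and 19295. It rose by 0.95 (SE 0.07) on the log2 scale. MT-ATP8, the small subunit beside it, had 339, 255 and 426 against 170, 303 and 174. DU145-vector replicate 2 lay above DU145-TFEB replicate 2, which makes it the 1 member with overlapping groups, and its limma adjusted p of 0.023 was above 0.05 when DU145-TFEB replicate 1 or 3 or DU145-vector replicate 1 or 3 was left out (0.061 to 0.092).

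MT-ATP8 and MT-ATP6 share bases, which bears on their counts. The last 46 bases of MT-ATP8, of 207 in all (22.2%), are the first 46 of MT-ATP6, on the mitochondrial sequence of GENCODE release 29 from 8527 to 8572. The shared stretch is shown 5′ to 3′ with the start codon of MT-ATP6 in capitals, since a read that falls within it belongs to both genes.
MT-ATP8 and MT-ATP6: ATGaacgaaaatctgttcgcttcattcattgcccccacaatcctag
MT-ATP8 had 1641 normalized counts per kilobase in DU145-TFEB and MT-ATP6 had 55331, although both lie on 1 processed mRNA. How reads shared by both genes were counted is not given in the sources used here.

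The make-up of the mitochondrial mRNA pool moved towards MT-CO1 and MT-CO2 of complex IV. MT-CO1 made up 32.3% ± 0.993 (SD, n = 3) of the reads on the 12 members in DU145-TFEB and 25.9% ± 0.765 (SD, n = 3) in DU145-vector. MT-CO2 made up 19.1% ± 0.298 and 15.3% ± 0.415 (SD, n = 3 each). MT-ND4 went the other way, with 9.77% ± 0.228 and 14.0% ± 0.496 (SD, n = 3 each). MT-ND1, MT-ND2, MT-ND3, MT-ND5 and MT-CYB also held a smaller share in every DU145-TFEB library, MT-ATP6 a larger one, and MT-CO3, MT-ND6 and MT-ATP8 overlapped between the groups. The ratio of MT-CO1 to MT-ND4 counts, a pair chosen after their values were seen, was 3.29, 3.28 and 3.33 in DU145-TFEB and 1.799, 1.91 and 1.86 in DU145-vector. This ratio within a library does not change when a library is divided by 1 factor, and it was as high in DU145-TFEB replicate 2 as in the others. Quantile normalization, which put MT-CO1 at 0.00 and MT-ND4 at -0.31, narrows it. The value of MT-CO1 is fixed there by its rank, so that setting cannot measure the ratio. Shares show unequal change and not which mRNA stayed constant.

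Non-coding RNAs of the mitochondrial genome and nuclear copies of its genes moved in the same direction. The 16S ribosomal RNA MT-RNR2 had 302891, 200725 and 350510 in DU145-TFEB and 147407, 105424 and 139048 in DU145-vector. The 12S ribosomal RNA MT-RNR1 rose less, with log2 fold changes of 0.53 against 1.10. With quantile normalization neither was called, but the value of MT-RNR2 is fixed there by its rank, as that of MT-CO1 is. The transfer RNA MT-TY, on the opposite strand, had 123, 122 and 135 against 78.4, 52.7 and 101, a log2 fold change of 0.75 (SE 0.23, limma adjusted p = 0.0095). These RNAs have short or no poly(A) tails, so their level in poly(A)-selected libraries also reflects the selection. Of nuclear copies, MTCO1P12 (98.7% identical to MT-CO1 over 1542 aligned bases), MTATP6P1 (98.5% identical to MT-ATP6 over 681) and MTND2P28 (98.4% identical to MT-ND2 over 1042) gave log2 fold changes of 1.27, 0.97 and 0.33. These values lie near those of the mitochondrial genes they resemble (1.13, 0.95 and 0.35). Copy and original differ at 20, 10 and 17 aligned bases, so a read that covers none of these cannot be assigned with certainty.

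In complex I, which takes electrons from NADH, 24 of 27 nuclear encoded members rose and 3 fell, with a median log2 fold change of 0.58. NDUFS7 (ENSG00000115286, chromosome 19 from 1383527 to 1395589, GRCh38), the subunit that carries the last iron-sulfur cluster before coenzyme Q, had 1312, 1513 and 1299 in DU145-TFEB and 687, 600 and 727 in DU145-vector. It was the nuclear encoded member with the largest rise, 1.03 on the log2 scale (SE 0.10, limma adjusted p = 1.5e-05). Exons of other genes on the opposite strand cover 49.1% of its exon bases in GENCODE release 29, and 25 of the 79 members share over 10% of their exon bases with another gene, so without strand-specific counting some of their reads cannot be assigned with certainty. NDUFA13, an accessory subunit also known as a cell death regulator, gave 45.2, 50.05 and 62.3 against 23.5, 31.2 and 25, and NDUFA11, an accessory subunit of the membrane arm, 263, 266 and 252 against 146, 123 and 147. Their log2 fold changes were 0.95 (SE 0.22) and 0.91 (SE 0.13), and the groups were separate despite the low counts of NDUFA13. NDUFS5, the nuclear encoded member of complex I with the highest level per kilobase, had 2237, 2535 and 2057 against 1715, 1665 and 1602, a log2 fold change of 0.45.

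The 3 members of complex I that fell included 2 of its 7 nuclear encoded core subunits on the list. NDUFV2 (chromosome 18 from 9102630 to 9134345), which holds an iron-sulfur cluster in the NADH-oxidizing module, had 53.7, 45.5 and 49.8 in DU145-TFEB and 107, 91.7 and 93 in DU145-vector. The counts were low for a core subunit, the groups were separate, and the log2 fold change was -0.95 (SE 0.17, limma adjusted p = 0.00049). Exons of other genes on the same strand cover 28.4% of its exon bases in GENCODE release 29, and their part in the low count was not tested. NDUFS1, the largest subunit of the same module, had 2221, 2182 and 2186 against 2533, 2533 and 2610, a fall of 0.22 (SE 0.06) on the log2 scale. It was the smallest called change of a member. NDUFA5, an accessory subunit of the arm that faces the matrix, had 577, 612 and 602 against 763, 928 and 721, with a log2 fold change of -0.42. NDUFV1, the partner of NDUFV2 in NADH oxidation, rose instead, from 3503 ± 218 to 6075 ± 691 (SD, n = 3 each). With the length and GC trend removed both were called lower, NDUFV1 at -0.21 and NDUFV2 at -0.84, so their opposite directions depended on the processing.

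Both listed subunits of complex II, succinate dehydrogenase, rose. SDHA, its flavoprotein, had 7094, 7239 and 6743 in DU145-TFEB and 5344, 4481 and 5102 in DU145-vector. SDHB, its iron-sulfur protein, had 2496, 2436 and 2339 against 1758, 1629 and 1689. The log2 fold changes were 0.50 (SE 0.08) and 0.52 (SE 0.07). With 2 members, the complex was covered by its catalytic part only, and the membrane anchors SDHC and SDHD were not analysed here.

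In complex III, the cytochrome bc1 complex, 9 of 10 nuclear encoded members rose and 1 fell, with a median log2 fold change of 0.53. UQCRC1 and UQCRC2 encode the paired core proteins of this complex and moved in opposite directions. UQCRC1 had 6346, 6816 and 5797 in DU145-TFEB and 3999, 3566 and 3973 in DU145-vector, a rise of 0.72 (SE 0.08, limma adjusted p = 3.4e-05). UQCRC2 had 1813, 1938 and 2216 against 3129, 2847 and 2891, a log2 fold change of -0.57 (SE 0.09, limma adjusted p = 0.0002). Neither gene had overlapping groups. The electron carriers CYC1 and UQCRFS1, which hold the heme c1 and the iron-sulfur cluster, rose by 0.66 and 0.33. UQCRB had the smallest rise, 0.23 (SE 0.06). With the length and GC trend removed it had the highest value of these 10 members, 1.40. CYC1 and UQCRC1 were then called lower, at -0.54 and -0.27, so the order within the complex depended on the processing. UQCRHL is a retrocopy of UQCRH with 81.9 to 170 normalized counts, and its reads and those of the parent may not have been told apart. Its call (limma adjusted p = 0.017) was lost without DU145-TFEB replicate 2 (0.052) or DU145-vector replicate 2 (0.062).

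All 12 listed nuclear encoded members of complex IV, cytochrome c oxidase, rose, and none of them turned lower under another scaling of the libraries. Their log2 fold changes lay between 0.33 and 0.81 with a median of 0.66, the highest of the 5 complexes. With quantile normalization complex I lay above complex IV (0.76 and 0.73). With the length and GC trend removed COX4I1 and COX8A turned to -0.02 and -0.06, and 3 of the 12 members of complex IV were not called. COX6C had 5680, 5628 and 5317 in DU145-TFEB and 3210, 3275 and 2972 in DU145-vector. COX7A2L, which helps complexes III and IV to join into supercomplexes, had 3710, 3825 and 3541 against 2197, 2024 and 2129. Both rose, by 0.81 (SE 0.07) and 0.80 (SE 0.07). COX6B1 followed with 0.79, and COX8A, which had the highest level per kilobase of the nuclear encoded members of this complex, with 0.75. COX4I1 and COX5A, which assemble with MT-CO1 early, gave 0.59 and 0.47. COX7B rose least, with 1182, 1305 and 1272 against 1025, 995 and 975. Its log2 fold change was 0.33 (SE 0.08), and the lowest DU145-TFEB library was still above the highest control.

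In complex V, 14 of 16 nuclear encoded members rose and 2 fell, with a median log2 fold change of 0.45. The 3 genes ATP5MC1, ATP5MC2 and ATP5MC3 encode the same mature c subunit of the rotor ring, and they rose by 0.69, 0.85 and 0.49. ATP5MC2 had 6078, 6298 and 5859 in DU145-TFEB and 3607, 3137 and 3376 in DU145-vector. The level of the catalytic beta subunit ATP5F1B, the member with the highest level per kilobase among all nuclear encoded ones, was 36126, 40944 and 34373 against 28323, 25383 and 27625. Its log2 fold change was 0.45 (SE 0.08), and -0.01 with quantile normalization. ATP5F1A, the alpha subunit that alternates with it in the F1 head, rose by 0.38.

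The 2 members of complex V that fell connect its parts. ATP5F1C (chromosome 10 from 7788129 to 7807815) encodes the gamma subunit, the central stalk that turns inside the F1 head, and had 2320, 2628 and 2384 in DU145-TFEB and 3748, 3807 and 3774 in DU145-vector. ATP5PB (chromosome 1 from 111448864 to 111462773) encodes the b subunit of the peripheral stalk and had 1583, 1865 and 1600 against 2748, 2891 and 2539. Their log2 fold changes were -0.63 (SE 0.07, limma adjusted p = 3e-05) and -0.70 (SE 0.09, limma adjusted p = 6.2e-05). In neither gene did the groups overlap. ATP5PD and ATP5PF, other proteins of the peripheral stalk, rose by 0.62 and 0.34.

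Fold changes in these libraries moved with the GC content of the transcript, and the members were set against that. Below 45% GC, 4.29% of 4083 other listed genes were higher in DU145-TFEB, and 13 of 18 nuclear encoded members were. From 45% to 50% the shares were 28.7% of 1667 other genes and 15 of 16 members. From 50% to 55% they were 77.9% of 1368 and 16 of 16, and from 55% upwards 96.4% of 3340 and 17 of 17. These bins were set after the values were seen. Above 50% GC the members thus moved like most listed genes, while below 50% they went against them, with medians of 0.36 and 0.51 in the 2 lower bins against -1.26 and -0.59 for other genes. The bins take no account of length. The median length was 2326 bases for the nuclear encoded members and 4999 for other listed genes, so the bins compare genes of unlike length. The 6 members that fell all had between 36.0% and 45.6% GC. The 12 mitochondrially encoded members had 39.6% to 47.7% GC, in the range where most other listed genes fell.

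**Figure D3:**
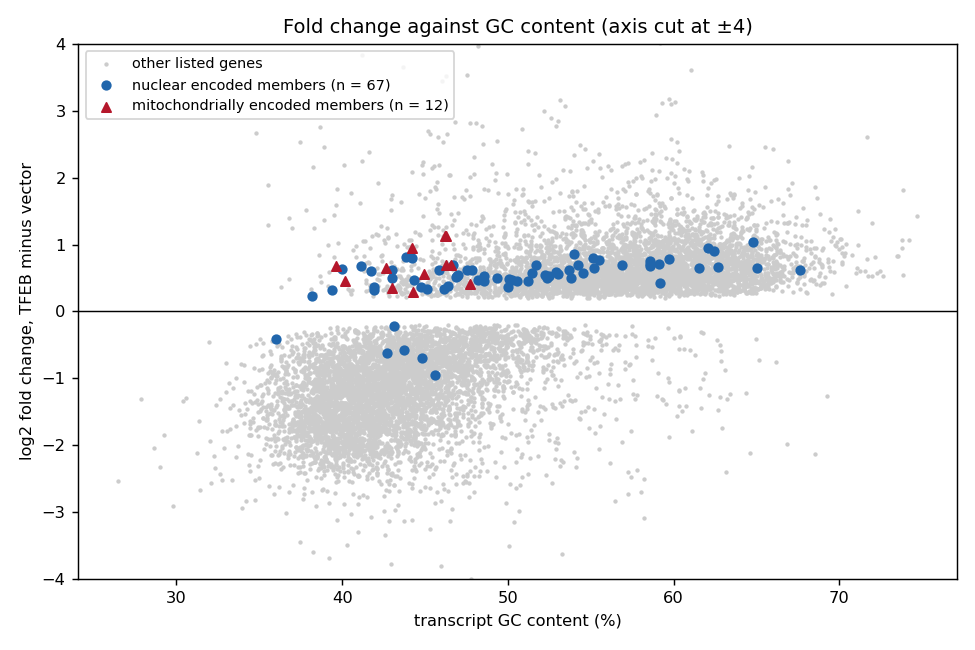
Each point is a listed gene, with the GC content of its transcripts (horizontal axis, %) and its log2 fold change, DU145-TFEB minus DU145-vector (vertical axis, drawn from -4 to 4, which leaves out 5 genes). Grey points form a lower cloud at low GC and an upper cloud at high GC, whereas all but 6 of the blue nuclear encoded members lie above 0 at low and high GC alike, and the red mitochondrially encoded members lie above 0 at 39.6% to 47.7% GC.

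Removing the trend against transcript length and GC from each library raised the median of the mitochondrial members and lowered that of the nuclear encoded ones, and calls were lost or turned in the nuclear encoded ones. After removal the median of all listed genes was -0.32, and 14.8% of them were called higher and 54.5% lower. The 12 mitochondrial mRNAs were still all called higher, with a median log2 fold change of 1.09. Nuclear encoded members split into 32 called higher, 16 lower and 19 not called, with a median of 0.18. The trend at the GC and length of the mitochondrial mRNAs rests on few genes, as 254 other listed genes shared their range, 64 of them protein-coding. The median log2 fold change of these 254 was -0.65 before removal, against 0.66 for the mitochondrial members. What gave rise to the trend was not tested, and since it separates the groups (0.70 to 1.36 in DU145-TFEB and -1.28 to -0.88 in DU145-vector, as log2 level of the 20% of genes richest in GC minus the 20% poorest), it and the effect of TFEB cannot be told apart.

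Complex IV had the highest median of the nuclear encoded members with and without the trend, though not with quantile normalization. With the trend removed its median was 0.74, and 9 of 12 members were called higher and 0 lower, whereas COX5B, COX4I1 and COX8A had 0.11, -0.02 and -0.06. The medians were -0.02 for complex I, 0.30 for complex II, 0.18 for complex III and 0.15 for complex V. The difference between complexes was not tested. In complex I, 10 of 27 were called higher and 8 lower. NDUFS7 went from 1.03 to -0.02, and NDUFA5 and NDUFS1 turned from -0.42 and -0.22 to 0.74 and 0.75. NDUFV2 kept its sign at -0.84, as did ATP5PB at -0.38 and ATP5F1C at -0.33, and these 3 were called lower under both accounts. UQCRC1 and UQCRC2 changed sides, with -0.27 and 0.06.

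**Figure D4:**
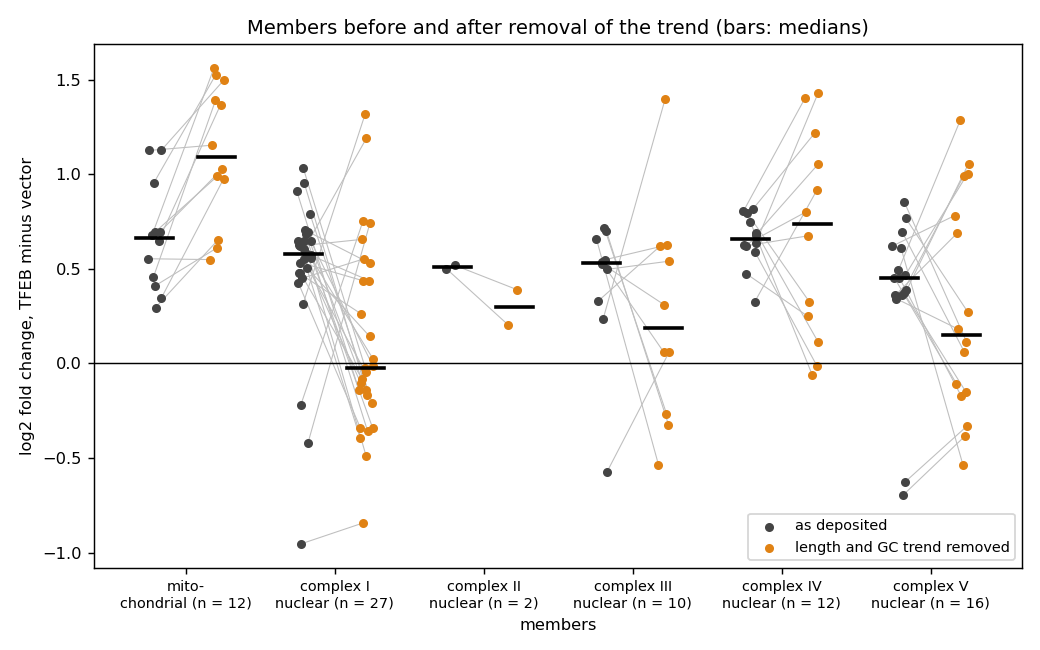
Log2 fold changes (vertical axis, DU145-TFEB minus DU145-vector) of each member as deposited (dark) and after the length and GC trend was removed (orange), joined by a line per gene, with black bars at the medians. The medians of mitochondrially encoded members go from 0.66 to 1.09 and those of nuclear complex IV from 0.66 to 0.74, while nuclear complex I goes from 0.58 to -0.02.

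Sequences upstream of the nuclear encoded members were searched for motifs of known regulators, as a description. RefSeq promoter windows (GRCh38.p14, 250 bases before to 50 after a transcript start) were matched to 55 of 67 members by symbol or synonym, and gave 69 windows. CACGTG, the E-box core that TFEB and other basic helix-loop-helix factors bind, stood in 6 of the 69 windows (8.70%), against 7.26% of all 35116 windows. The palindrome holds the same letters on both strands. TCACGTGA, a fuller form that contains it, was in 1 window, that of ATP5ME. In ATP5MC1 the E-box core lies after the start. The remaining 5 members with CACGTG before the start are shown 5′ to 3′ on the strand of the gene, with the motif in capitals, because they include the nuclear encoded member that rose most and 1 that fell.
NDUFS7, chr19:1383700-1383745, plus strand: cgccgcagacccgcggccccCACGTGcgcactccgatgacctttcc
NDUFA11, chr19:5903897-5903942, minus strand: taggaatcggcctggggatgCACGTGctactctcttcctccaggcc
UQCR11, chr19:1605624-1605669, minus strand: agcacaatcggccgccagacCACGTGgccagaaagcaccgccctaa
ATP5ME, chr4:674413-674458, minus strand: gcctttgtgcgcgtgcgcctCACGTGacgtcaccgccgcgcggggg
ATP5PB, chr1:111449221-111449266, plus strand: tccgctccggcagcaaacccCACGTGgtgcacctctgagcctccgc
Their log2 fold changes were 1.03, 0.91, 0.70, 0.77 and -0.70, and -0.02, -0.14, -0.32, 0.27 and -0.38 with the trend removed. The motif starts 187, 132, 187, 162 and 223 bases before the start.

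CCGGAAG, the core bound by ETS factors such as GABPA (nuclear respiratory factor 2), was found on either strand in 21 of 69 windows (30.4%), against 10.3% of all windows. For each motif, all windows include those of genes that are not listed, so this background is unlike the members. A site shared by overlapping windows of ATP5PF was counted in both. It occurred in 20 of the 55 matched members, 19 that rose and 1 that fell (NDUFS1). Of all 67 nuclear encoded members, matched or not, 61 rose, a share near that. With 1 member that fell, the count cannot show whether motif and direction are linked. By complex these were 5 of 23 matched members in complex I, 1 of 2 in complex II, 3 of 8 in complex III, 5 of 10 in complex IV and 6 of 12 in complex V. TGCGCA, a part of the site of nuclear respiratory factor 1, was in 16 windows (23.2%) against 8.24% of all. The longer palindromic form of the same site was in 2 windows (2.90%) against 1.24%. Complex IV members with CCGGAAG before the start are shown on the strand of the gene, with CCGGAAG or its reverse complement in capitals. They were chosen since complex IV held the highest median with and without the trend, though not with quantile normalization.
COX5B, chr2:97646005-97646051, plus strand: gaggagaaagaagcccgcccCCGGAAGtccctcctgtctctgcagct
COX6A1, chr12:120438077-120438112, plus strand: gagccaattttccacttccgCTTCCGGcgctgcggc
COX6B1, chr19:35648291-35648322, plus strand: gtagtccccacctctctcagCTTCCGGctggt
COX8A, chr11:63974582-63974619, plus strand: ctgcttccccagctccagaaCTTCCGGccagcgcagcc
These 4 genes rose by 0.69, 0.62, 0.79 and 0.75, and stood at 0.11, 0.67, 0.33 and -0.06 with the length and GC trend removed. In COX4I1, which also held the motif, it lies after the start and is not shown.

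Genes that build the complexes were mixed in direction. Of the assembly factors on the lists for complexes I to V, 36 of 58 were listed, of which 24 rose and 12 fell, with a median log2 fold change of 0.38. With the length and GC trend removed the median was -0.03, and 12 were called higher and 15 lower. ECSIT, an assembly factor of complex I, rose by 1.33, with 953, 1112 and 1044 in DU145-TFEB and 424, 368 and 443 in DU145-vector. With the trend removed it was at 0.20 and not called (limma adjusted p = 0.056). SDHAF4, which helps to load SDHA, rose by 1.06 and stood at 1.38 with the trend removed. LYRM7, which hands the iron-sulfur protein to complex III, fell with a log2 fold change of -1.29, as did COX16, a factor for MT-CO2, with -1.20, and of these COX16 was still called lower with the trend removed (-0.67) and LYRM7 was not called (-0.19). PET100 rose by 0.96 and SURF1 by 0.75, and both serve complex IV. With the trend removed PET100 was at 0.06 and not called, and SURF1 was called lower at -0.28. Among the electron carriers, 8 of 10 listed genes rose, led by COQ9 (0.73), and 2 fell. The latter were COQ10B (-1.20) and CYCS, cytochrome c itself, with 3682, 4298 and 3719 against 4403, 5128 and 4294 and a log2 fold change of -0.24. The groups of CYCS overlapped, and with the trend removed COQ9 was at -0.02 and CYCS was called higher at 0.44.

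Of 32 listed genes that keep and express the mitochondrial genome 12 rose and 20 fell, against 52.4% of all listed genes called lower. Of 14 listed genes of mitochondrial DNA maintenance and transcription, 5 rose and 9 fell, with a median log2 fold change of -0.68. TFAM, which packages mitochondrial DNA and starts its transcription, had 481, 478 and 568 in DU145-TFEB and 1113, 1478 and 1009 in DU145-vector. TFB2M, a transcription factor that opens the promoter, fell with a log2 fold change of -1.36, RRM2B, which supplies nucleotides, with -1.87, and TFAM with -1.22. POLRMT, the mitochondrial RNA polymerase, rose by 0.94. Of 18 listed genes of mitochondrial RNA processing and stability, 7 rose and 11 fell. LRPPRC, which protects mitochondrial mRNAs from decay, had 1293, 888 and 1688 against 5182, 5863 and 4880, a log2 fold change of -2.08 (SE 0.19, limma adjusted p = 1.1e-05). SLIRP, its binding partner, rose by 0.42. The medians of these 2 lists were -0.27 and -0.41 with the trend removed, against -0.32 for all listed genes, so they lay near the listed background, and TFAM was then at -0.24 and LRPPRC at -1.04.

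Of 7 listed regulators of respiratory genes, 5 fell, and 2 rose, of which TFEB is 1. GABPA had 196, 112 and 281 in DU145-TFEB and 633, 811 and 618 in DU145-vector, a log2 fold change of -1.89. ESRRA, a nuclear receptor that acts on respiratory genes, was the other that rose, by 0.75. Of 7 listed genes of the contact site and cristae system, 3 rose and 4 fell, from MTX3 at -2.13 to MTX1 at 0.56. OPA1, which shapes the cristae, had -1.97. With the trend removed ESRRA and MTX1 turned to -0.34 and -0.44, and GABPA, MTX3 and OPA1 stayed below 0 (-0.82, -0.96 and -0.82).

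**Figure D5:**
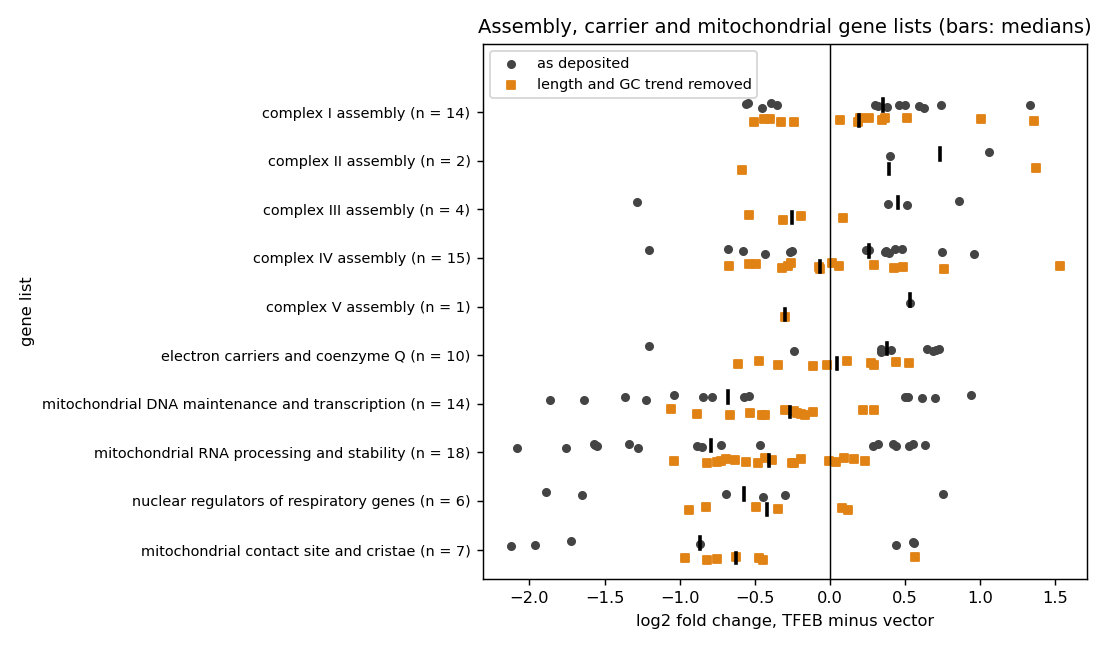
Log2 fold changes (horizontal axis, DU145-TFEB minus DU145-vector) of the listed genes on each list, as deposited (dark circles) and with the length and GC trend removed (orange squares), with black bars at the medians and TFEB left out for scale. The lists of mitochondrial DNA and RNA genes have medians below 0 in both cases (-0.68 and -0.79, then -0.27 and -0.41), and the assembly lists lie on both sides of 0.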

How the data were processed

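mRNA of DU145 cells was sequenced in 3 libraries each of DU145-TFEB and DU145-vector. Per the labels, poly(A) RNA was made into libraries with the NEBNext Ultra kit, and the submitters' processing notes name CASAVA 1.8, HISAT2 2.1.0, edgeR and GRCh38, while the paper names DESeq2. The counting program, its annotation and its use of strand are not given in the sources used here. The authors deposited a normalized signal per gene, which is reads divided by 1 size factor per library. They also deposited group means, log2 fold changes, p-values and adjusted p-values. None of these was used, except that the adjusted p-values showed that all 10542 listed genes lie below the 0.05 cutoff.

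Reads were recovered from the deposited signal (100% of values whole within 0.001). The design foresaw limma for normalized values, and limma 3.58.1 with a mean-variance trend (R 4.3.3) was fitted to log2(value + 1) for genes with a mean of at least 1, without a block. edgeR 4.0.16 and DESeq2 1.42.0 on the recovered reads were alternatives. Members and gene lists were chosen with earlier results of these data known. Gene positions equal GENCODE release 29 for 10541 genes, and GC content came from its transcripts for 10537. The trend against log length and GC was removed from each library by loess (span 0.5). Levels per kilobase use the deposited length, the union of all exons, and so understate nuclear genes. Promoter windows were from RefSeq (GRCh38.p14). The fits were tested on simulated counts. On these, limma called most unchanged genes once a GC trend between the groups was added, and few after the loess removed it. The added trend was in GC alone, which the loess models, so this outcome was set by the design. It does not show how well the trend of the real libraries was removed, nor which of their calls are due to it.

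Named by rule were every mitochondrially encoded member, the 2 highest, 2 lowest (complex I 3 and 3) and the most abundant nuclear encoded member per kilobase of each complex, members of opposite sign to their complex, the highest and lowest gene of each other list (2 and 2 for lists of 15 or more listed genes), TFEB, and the 3 most abundant of the listed copies and non-coding RNAs of mitochondrial genes. Other genes were named for their role after their values were seen. Libraries of a group differed by more than sampling noise (mean chi-square per gene 2.96 to 26.6), so none was taken as a second deposit of another, which does not show that they came from separate cultures. Intervals of counting error are small beside this spread.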

Additional observations from a re-analysis of the deposited data

How the results depend on the processing

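The replicate numbers did not pair the samples (correlations of same-numbered libraries -0.02, -0.25 and -0.14), and a fit with the replicate block gave the same counts of called members, 61 and 6 nuclear and 12 and 0 mitochondrially encoded. edgeR and DESeq2 on the recovered reads, both pseudocounts, the filters and protein-coding genes only also kept these counts in every case but the filter at 100, which left out 2 members. Leaving out a library in turn gave 60 to 61 nuclear and 10 to 12 mitochondrially encoded members called higher, medians of 0.50 to 0.62 and 0.56 to 0.75, and a difference of the medians from -0.062 to 0.25.

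With DESeq2 size factors the medians of nuclear and mitochondrially encoded members were 0.80 and 0.90, those of complexes I to V 0.82, 0.75, 0.77, 0.90 and 0.69, and NDUFS1 was at 0.020. With the upper quartile these medians were 0.74 and 0.84, and 0.76, 0.69, 0.71, 0.84 and 0.63. TMM put complex II at 0.59. With quantile normalization 4 mitochondrially encoded members were called higher and 1 lower, the medians were 0.66 for nuclear, 0.12 for mitochondrially encoded and 0.76 for complex I members (above complex IV at 0.73), and the difference was -0.54, with MT-ND2 at -0.16, MT-ND4 at -0.31 and ATP5F1B at -0.0050. This setting gives genes of equal rank equal values. MT-CO1 came out at a log2 fold change of 0.00 for that reason, which does not measure its change.

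With the length and GC trend removed, 32 nuclear encoded members were called higher and 16 lower (14 with the replicate block), 2 members passed both cutoffs, and 1555 listed genes were called higher (1525 with the block). The medians were 0.18 for nuclear and 1.09 for mitochondrially encoded members, with a difference of 0.91, and -0.023, 0.30, 0.18, 0.74 and 0.15 for complexes I to V, with or without the block. Among the genes named by rule, those that changed sign were ATP5F1B (-0.11), COX8A (-0.061), CYC1 (-0.54), NDUFA11 (-0.14), NDUFA13 (-0.14), NDUFA5 (0.74), NDUFS1 (0.75), NDUFS7 (-0.023), UQCR11 (-0.32), UQCRC1 (-0.27) and UQCRC2 (0.058), and, outside the complexes, ATPAF2 (-0.30), COQ9 (-0.021), FASTK (-0.43), MTX1 (-0.44), NDUFAF4 (0.26), POLRMT (-0.11), SDHAF1 (-0.59), SURF1 (-0.28) and TBRG4 (-0.39). Other members, such as NDUFV1 (-0.21), changed sign as well. The cause of these changes was not tested. Without a fold-change cutoff 79 members passed, 41 did at a fold change above 1.5 and 3 at an absolute log2 fold change above 1. NDUFA4 counted in complex I gave medians of 0.59 and 0.68 for complexes I and IV. The 5 largest standard errors were those of MT-ATP8 (0.25), NDUFA13 (0.22), UQCRHL (0.18), ATP5ME (0.17) and NDUFV2 (0.17), which are among the 7 members with the lowest DU145-vector means, so precision was lower at low counts, and 3 libraries per group limit it for every member.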
